A study of Homo sapiens with 30 samples.

Results

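The 7 genes described here were expressed in one cell line and nearly absent from the other: GSTP1, ZNF804A, KCNT2, KC6 and DOK6, on in the line labelled WDM, and LAYN and ZNF22, on in the line labelled WT. They are 7 of the 60664 genes in the count table, and were found by symbol. They were chosen by these same counts, which differ between the lines, so that difference is given below as a description, with no test. What the choice did not use, and what was tested, is how each gene's RNA responded to tetracycline and arsenite, and how it was divided between cytosol and granules, within the line that has it.

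HEK293 is an established human embryonic kidney line; Flp-In T-REx versions of it take up 1 transgene at a fixed locus and express it when tetracycline is given. In both lines studied the transgene is GFP-tagged TIA1a, which binds RNA and nucleates stress granules. One line holds the wild-type form (WT), and the other the mutant that causes Welander distal myopathy (WDM). Each line was sampled as cytosol from untreated cells, from cells given tetracycline, and from cells given tetracycline and then 0.5 mM sodium arsenite for 60 min. Granules, which are the high-speed pellet captured through GFP, were sampled from tetracycline-treated cells without and with arsenite, so 10 groups of 3 libraries make up 30. The tetracycline dose, and whether a line is 1 clone or a pool, are not given in the sources used here. There is 1 line per genotype, so the TIA1 mutation and any other difference between the lines cannot be told apart. Nothing states that replicates came from separate cultures, and p-values measure only the spread between these libraries.

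The 7 genes have unrelated roles. GSTP1 is the pi-class glutathione S-transferase, a cytosolic enzyme that couples glutathione to reactive compounds; its CpG-rich promoter is a textbook case of silencing by DNA methylation in tumours. KCNT2 is a sodium-activated potassium channel, and LAYN (layilin) a membrane receptor for hyaluronan that binds talin. DOK6 is a docking protein that relays signals of receptor tyrosine kinases such as RET. ZNF804A and ZNF22 are zinc-finger proteins, the first known as a schizophrenia-associated gene, and KC6 is a long non-coding RNA. Stress granules assemble when stress such as arsenite, which attacks thiols and blocks translation, leaves messenger RNA off polysomes. They are known to take up long, poorly translated RNAs.

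The sequence just upstream of the start site is shown for 4 of the genes, because they range from CpG-rich to CpG-free. Sequences are the 200 bases before the RefSeq start on GRCh38.p14, 5′ to 3′ on the gene's strand, with every CG in capitals. They lie at chr11:67583612-67583811 (GSTP1), chr2:184598329-184598528 (ZNF804A), chr10:45000723-45000922 (ZNF22), all on the plus strand, and chr18:41520678-41520877 (KC6, minus strand).
GSTP1: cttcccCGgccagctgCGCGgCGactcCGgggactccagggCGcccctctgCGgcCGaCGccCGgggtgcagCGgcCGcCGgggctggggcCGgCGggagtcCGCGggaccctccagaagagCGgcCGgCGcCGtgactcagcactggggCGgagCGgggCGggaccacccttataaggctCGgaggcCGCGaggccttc
ZNF804A: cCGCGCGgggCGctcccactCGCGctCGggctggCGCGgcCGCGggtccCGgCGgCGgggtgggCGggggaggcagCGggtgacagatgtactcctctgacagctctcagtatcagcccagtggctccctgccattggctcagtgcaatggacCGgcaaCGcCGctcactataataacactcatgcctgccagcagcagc
ZNF22: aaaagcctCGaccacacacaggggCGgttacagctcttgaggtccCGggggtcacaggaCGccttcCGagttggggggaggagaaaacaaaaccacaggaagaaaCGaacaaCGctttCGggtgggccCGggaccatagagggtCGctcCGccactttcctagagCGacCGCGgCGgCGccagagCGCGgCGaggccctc
KC6: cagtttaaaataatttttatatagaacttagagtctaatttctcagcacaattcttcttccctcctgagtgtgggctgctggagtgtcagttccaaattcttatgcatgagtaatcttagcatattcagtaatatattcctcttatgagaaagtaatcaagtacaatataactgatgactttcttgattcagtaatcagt

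GSTP1 holds 27 CG dinucleotides in these 200 bases, more than 90.9% of the 35116 promoters of the RefSeq table. ZNF804A and ZNF22 hold 19 each, KCNT2 (not printed) holds 7 and KC6 holds none, against a median of 9. No CG was found in 8.02% of promoters. Each motif was searched on both strands. The AP-1 motif TGACTCA was present in GSTP1 only, at position -66 from the start, and is in 3.54% of promoters. The GC box GGGCGG was present 2 times in GSTP1, without overlap, and 1 time each in ZNF804A, ZNF22 and KCNT2 (40.1% of promoters hold it). TATAAA was present 1 time in KC6 (8.59% of promoters). LAYN and DOK6 were not matched. The RefSeq start of KC6 lies inside the span that the count table gives the gene, so the KC6 window need not be the start of the transcripts counted. The KCNT2 window also lies inside its counted span. The GSTP1 window runs past the counted start, so its AP-1 and GC-box matches lie inside the counted gene.

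Library depth ran from 5906167 to 27419145 counts, so that 3 counts, the most a count of 0 allows, correspond to 0.109 to 0.508 CPM, the usual count scaled to library size. Such limits cover counting error only. TIA1 itself had 3 counts over the 30 libraries, so the transgene gave no check of the labels or of its induction. Why a gene the lines are said to express had so few counts was not tested. A near-zero count in this table therefore need not mean that RNA is absent. Kidney-lineage and epithelial markers were present in all 18 cytosol libraries (EYA1 at 9.45 to 19.4 CPM, KRT8 at 91.6 to 177 CPM), while PAX8 had at most 2 counts. Of the neurofilament genes, NEFL was at 83.0 to 196 CPM and NEFM at no more than 5 counts. The 8 markers of blood, endothelium, fibroblasts, liver and squamous epithelium summed to 1.85 to 5.84 CPM, most of it COL1A1. In bulk RNA, fewer cells with a gene and less RNA per cell cannot be told apart.

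Before any treatment the 7 genes were already on in one line only. GSTP1 (ENSG00000084207, chromosome 11, 67583742 to 67586656, plus strand) had 110.0, 109.8 and 107 CPM in the 3 WDM untreated cytosol libraries. In WT it had 0 or 1 count in each of the 15 libraries. GSTP1 was therefore at least 345-fold higher in WDM untreated cytosol, taking 3 counts in the smallest WT library as the limit. No other member was so fully absent from the line without it.

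KCNT2 (ENSG00000162687, chromosome 1, 196225779 to 196609225, minus strand) had 41.8, 43.9 and 40.7 CPM in untreated WDM cytosol and 0 to 3 counts in a WT library. DOK6 (ENSG00000206052, chromosome 18, 69400888 to 69849087, plus strand) had 39.4, 39.4 and 36.8 CPM in WDM and 3 to 6 counts in WT. ZNF804A (ENSG00000170396, chromosome 2, 184598529 to 184939492, plus strand) had 21.2, 25.7 and 22.2 CPM in WDM and at most 1 count in WT. None of these 3 genes overlapped between lines. KC6 (ENSG00000267313, chromosome 18, 41465783 to 41632185, minus strand) had 12.6, 13.9 and 12.0 CPM in WDM and 1 or 2 counts in WT. No KC6 library overlapped between the lines. The members were chosen for this difference, and the share of all genes without overlap between lines was not counted.

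Both genes of the WT line were the reverse, on in WT and near absent from WDM. LAYN (ENSG00000204381, chromosome 11, 111540280 to 111561745, plus strand) had 14.7, 16.0 and 13.7 CPM in untreated WT cytosol and 0 to 4 counts in WDM. ZNF22 (ENSG00000165512, chromosome 10, 45000923 to 45005326, plus strand) had 14.3, 14.8 and 13.2 CPM in WT and 1 to 10 counts in WDM. Per kilobase of exon, GSTP1 stood at 61.8 ± 0.936 RPKM (SD, n = 3), far above the other 4 of its line, which ran from 2.47 ± 0.192 (KC6) to 5.86 ± 0.231 RPKM (KCNT2). ZNF22 at 6.71 ± 0.392 RPKM and LAYN at 4.71 ± 0.366 RPKM lay within or just above that range. ZNF804A stood at 5.09 ± 0.520 RPKM.

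Some of these counts cannot be assigned with certainty, because the strand setting of the counting is not given in the sources used here. ZNF22 has 37.9% of its exon length inside exons of CEP164P1 on the opposite strand. ZNF804A shares 404 exon bases with the opposite-strand ENSG00000283839, and DOK6 shares 112 with CD226. GSTP1, KCNT2 and LAYN overlap no exon of another gene, and KC6 overlaps only the intronic span of an opposite-strand gene.

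**Figure D1:**
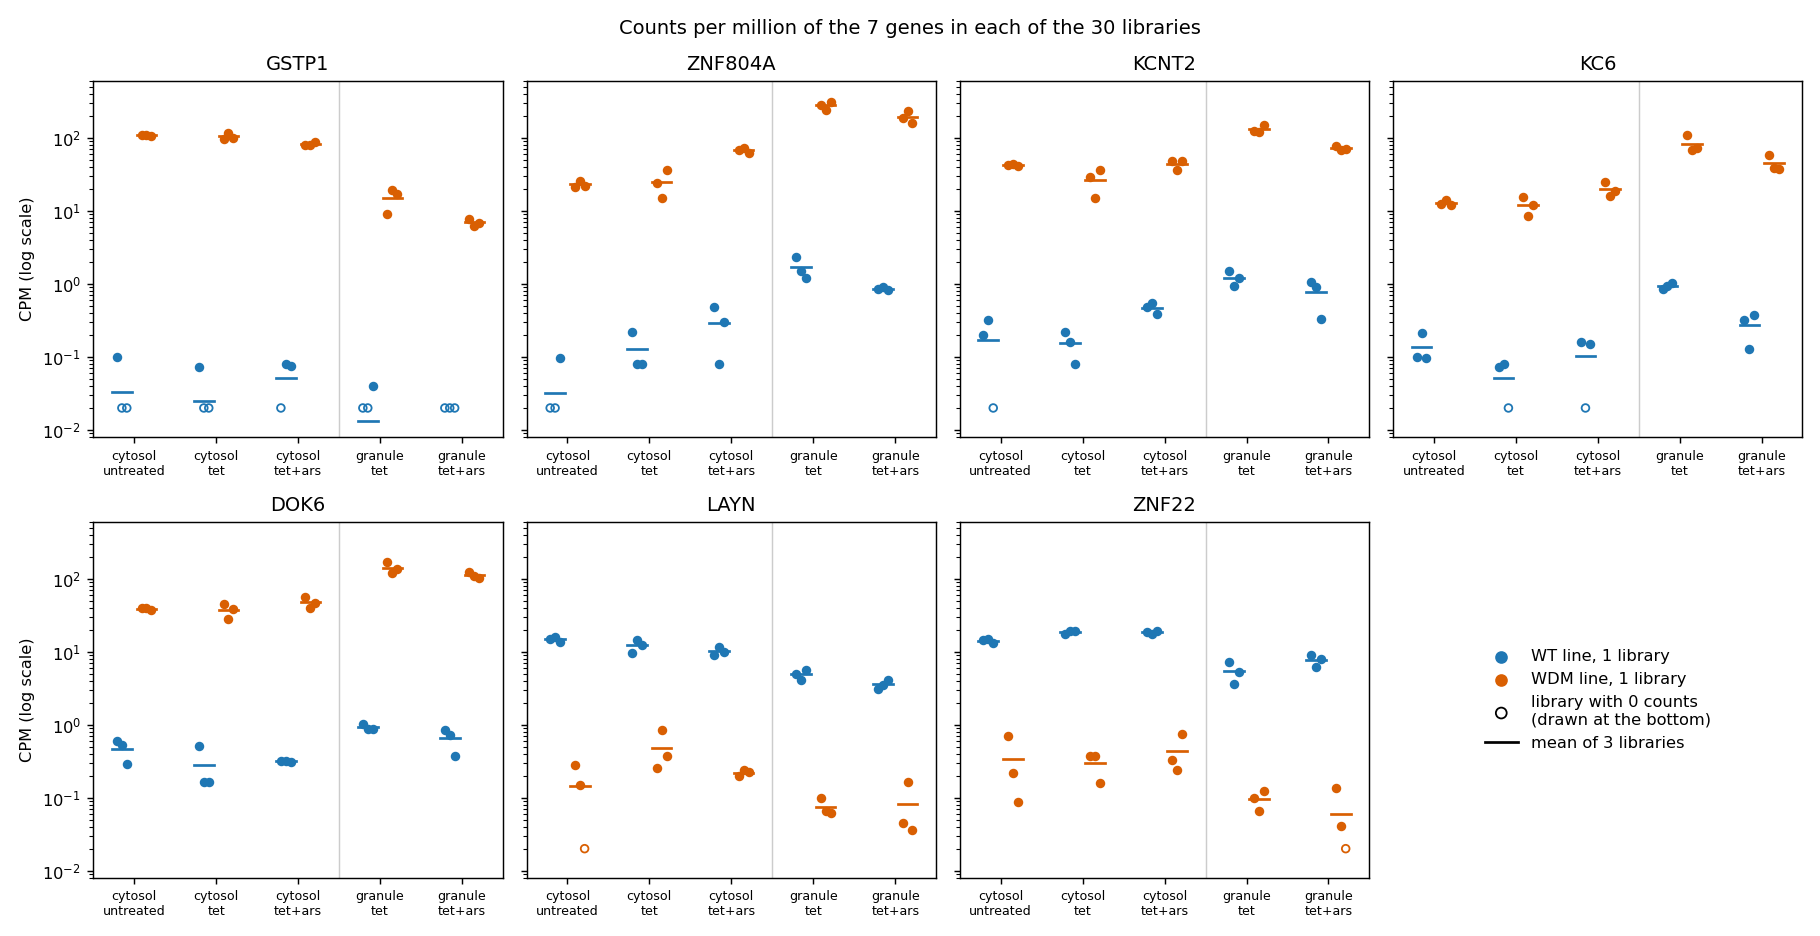
CPM (log scale) of each gene in each of the 30 libraries, by fraction and treatment; blue points are WT libraries, orange points WDM libraries, horizontal lines means of 3, and open points at the bottom libraries with 0 counts. The lines do not overlap for any gene in any of the 5 conditions, but the genes were chosen for this difference. Of the 5 WDM genes 4 rise from left to right into granules, while GSTP1, LAYN and ZNF22 drop.

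Tetracycline, given to switch on the transgene, left the 7 genes without a call by the main test in the line that has them. KCNT2 was called under some other settings. In WDM cytosol 0 of 5 were called with edgeR at an adjusted p under 0.05, where 6.3% of 16670 genes were (3.23% lower), and DESeq2 also called 0. In WT cytosol 0 of 2 were called by edgeR, where 5.31% of genes were (2.93% higher, 2.39% lower), and DESeq2 called 1 of 2. At an unadjusted p under 0.05, edgeR gave 1 of 5 in WDM (KCNT2) and 1 of 2 in WT (ZNF22).

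KCNT2 had 29.0, 15.0 and 36.3 CPM in the 3 WDM tetracycline libraries, all below the untreated ones. Its log2 fold change was -0.63 (SE 0.201, adjusted p 0.0725), and without WDM tetracycline replicate 3 it was -0.91 (adjusted p 0.0151). It was called without the low-count filter as well (-0.64, adjusted p 0.000259) and with a replicate block (-0.68, adjusted p 0.0214). ZNF22 had 17.4, 19.3 and 19.0 CPM in WT tetracycline libraries, all above the untreated ones, with a log2 fold change of 0.44 (SE 0.174, adjusted p 0.143; DESeq2 adjusted p 0.0473). These were the only members whose treated and untreated libraries did not overlap. How many of all genes had libraries without overlap was not counted, here or in the comparisons below. GSTP1 had 97.5, 118 and 100.3 CPM with tetracycline, DOK6 45.5, 28.0 and 38.1, and KC6 15.3, 8.41 and 11.9. ZNF804A had 24.0, 15.0 and 36.3 CPM, and LAYN in WT 9.60, 14.4 and 12.5. Their log2 fold changes lay between -0.24 (LAYN) and 0.16 (ZNF804A), with adjusted p of at least 0.500.

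The WDM tetracycline replicate 2 library was the lowest of its group for ZNF804A, KCNT2, KC6 and DOK6, and the highest for GSTP1. Genes that span over 100 kb took 17.8% of its counts, against 21.8% and 21.0% in the other replicates. In the WDM arsenite cytosol libraries the share was 25.7% in replicate 1 and 22.3% and 22.2% in the others. The part of these differences in the results was not tested, and values without the library are given below where they change a call.

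Arsenite raised 3 of the long WDM genes in cytosol and lowered GSTP1. In all, 4 of 5 members were called in the WDM line, 3 higher and 1 lower, where 28.8% of genes were called (14.1% higher, 14.8% lower). ZNF804A changed most. It had 68.2, 73.7 and 61.6 CPM with arsenite, every library above every tetracycline one, a mean of 67.9 ± 6.08 against 25.1 ± 10.7 CPM (SD, n = 3). Its log2 fold change, computed on TMM-scaled counts as are all those here, was 1.33 (SE 0.204, adjusted p 0.000237).

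KCNT2 had 48.5, 36.4 and 47.8 CPM with arsenite, just clear of the tetracycline libraries, and rose by a log2 fold change of 0.63 (SE 0.200, adjusted p 0.0268). That brought its mean to 44.2 CPM, close to the 42.2 CPM of untreated cells. KC6 had 25.1, 15.8 and 18.9 CPM with arsenite, above 15.3 in the highest tetracycline library, and rose by 0.67 on the log2 scale (SE 0.186, adjusted p 0.0118). Both calls were lost without WDM tetracycline replicate 2 (log2 fold change 0.35, adjusted p 0.0935 for KCNT2, and 0.49, adjusted p 0.0792 for KC6) and without WDM arsenite replicate 1 (adjusted p 0.0905 and 0.0740). The KCNT2 call was lost without arsenite replicate 3 as well (adjusted p 0.0691), and both were lost when only the groups compared were fitted (0.104 and 0.0662). DOK6 had 56.2, 39.6 and 46.0 CPM, overlapping the tetracycline libraries (log2 fold change 0.26, SE 0.141, adjusted p 0.175; without tetracycline replicate 1 it was 0.42, adjusted p 0.0297).

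GSTP1 fell with arsenite. It had 80.1, 79.9 and 87.1 CPM, each below the lowest tetracycline library, a log2 fold change of -0.44 (SE 0.103, adjusted p 0.00411) that kept its call in every alternative tried. Without WDM tetracycline replicate 2 the log2 fold changes of GSTP1 and ZNF804A were still called, the latter at no less than 1.08 in any fit that left out 1 library.

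In WT cytosol arsenite changed neither gene by the test, with 0 of 2 called by edgeR and by DESeq2, where edgeR called 29% of genes. At an unadjusted p under 0.05 edgeR gave 1 of 2, LAYN. LAYN had 8.96, 11.5 and 9.92 CPM, overlapping its tetracycline libraries, and a log2 fold change of -0.40 (SE 0.188, adjusted p 0.110). Without WT tetracycline replicate 1 this became -0.58 (adjusted p 0.0131). ZNF22 had 18.6, 17.6 and 18.9 CPM and a log2 fold change of -0.15 (SE 0.169, adjusted p 0.534). The arsenite and tetracycline contrasts of a line share the tetracycline cytosol libraries.

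**Figure D2:**
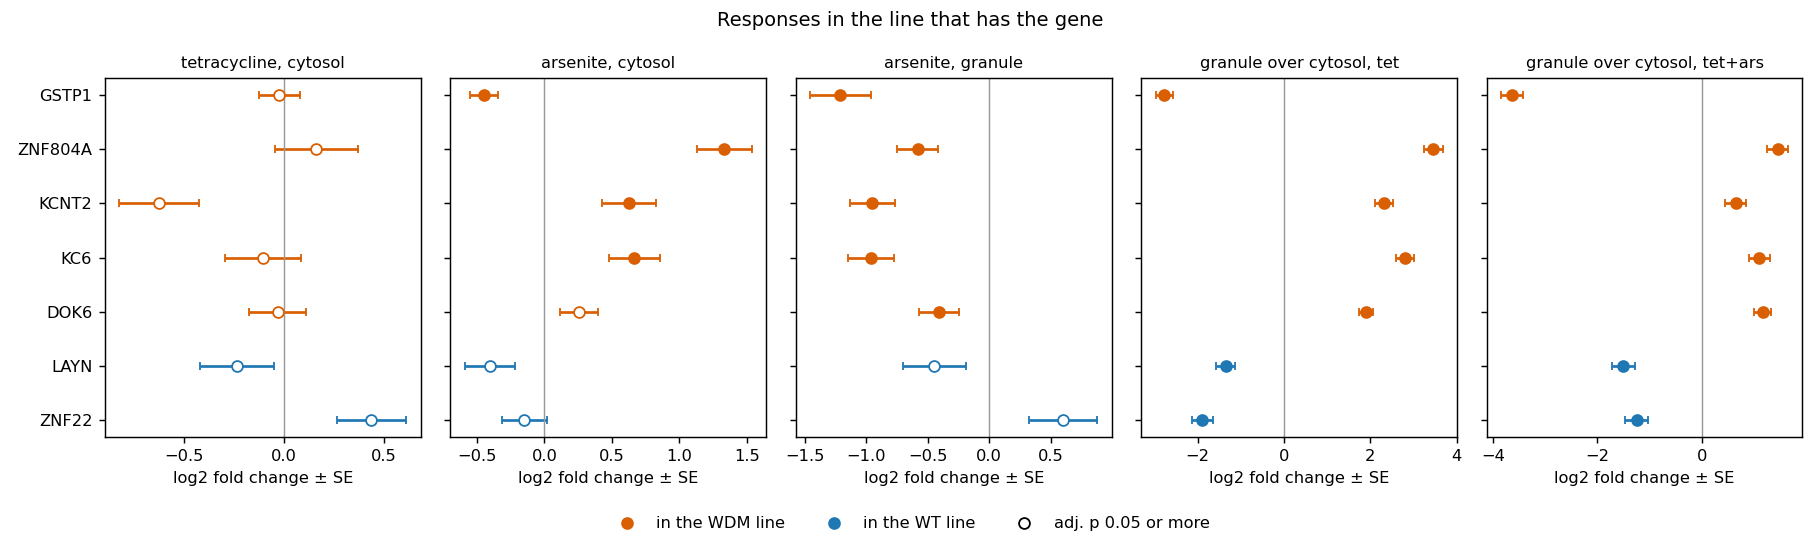
Log2 fold change ± SE of each gene in the line that has it (orange WDM, blue WT), for 5 comparisons with separate horizontal scales; open points have an adjusted p of 0.05 or more. No gene was called for tetracycline, 4 were for arsenite in cytosol, 5 for arsenite in granules, and all 7 for granule over cytosol in both treatments. Of all genes, 6.3% (WDM) and 5.31% (WT) were called for tetracycline, and 28.8% and 29% for arsenite in cytosol. In granules 36.3% and 30.6% were called for arsenite, and 70.5% to 75.7% for granule over cytosol.

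The genes divided between fractions more sharply than they responded to treatment. In tetracycline-treated WDM cells 5 of 5 were called between granule and cytosol, 4 higher in granules and 1 lower, but 71.1% of 18141 genes were called there (35.8% higher, 35.3% lower). In WT cells 2 of 2 were called, both lower, where 75.7% of genes were called (39.5% higher, 36.2% lower). A count of calls is therefore close to the background, and the sizes carry the description.

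ZNF804A RNA had the largest rise. Granule libraries of the WDM line held 279, 244 and 311 CPM against 15.0 to 36.3 in cytosol, a log2 fold change of 3.46 (SE 0.220, adjusted p 6.93e-13), above 99.1% of all genes tested. KC6 had 108, 67.3 and 73.8 CPM in granules and a log2 fold change of 2.80 (SE 0.216, adjusted p 5.78e-12). KCNT2 had 125, 122 and 152 CPM and 2.31 (SE 0.210, adjusted p 1.43e-10). DOK6 had 167, 119.6 and 135 CPM and 1.91 (SE 0.165, adjusted p 4.64e-11). For these 4 genes every granule library lay above every cytosol library of the line, though the share of all genes so separated was not counted.

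GSTP1 ran the other way. It had 9.02, 19.5 and 16.8 CPM in granules against 97.5 to 118 in cytosol, a log2 fold change of -2.77 (SE 0.200, adjusted p 4.42e-12), lower than all but 0.794% of genes. In the WT line LAYN had 4.91, 4.06 and 5.64 CPM in granules (log2 fold change -1.35, SE 0.221, adjusted p 3.20e-06). ZNF22 had 7.28, 3.59 and 5.20 CPM (log2 fold change -1.89, SE 0.238, adjusted p 3.58e-08). Granule and cytosol libraries did not overlap for these 3 genes either.

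The direction followed gene span, the length from first to last exon. DOK6 (448 kb), KCNT2 (383 kb), ZNF804A (341 kb) and KC6 (166 kb) are the 4 long genes and were higher in granules; LAYN (21.5 kb), ZNF22 (4.40 kb) and GSTP1 (2.92 kb) are short and were lower. The same held across the table. In WDM cells with tetracycline the median log2 fold change, granule over cytosol, was 1.24 for 3854 genes over 100 kb, 78.8% of them called higher, and -1.05 for 2597 genes under 5 kb, 56.5% of them called lower. In WT the corresponding medians were 1.48 and -1.10, and the 6185 genes of 5 to 30 kb, the class of LAYN, had -0.53. Each long member lay above the median of its class and each short one below it. Span is correlated with intron and exon length, and their parts were not tested. A count over a long gene may include unspliced RNA, which the table does not separate.

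**Figure D3:**
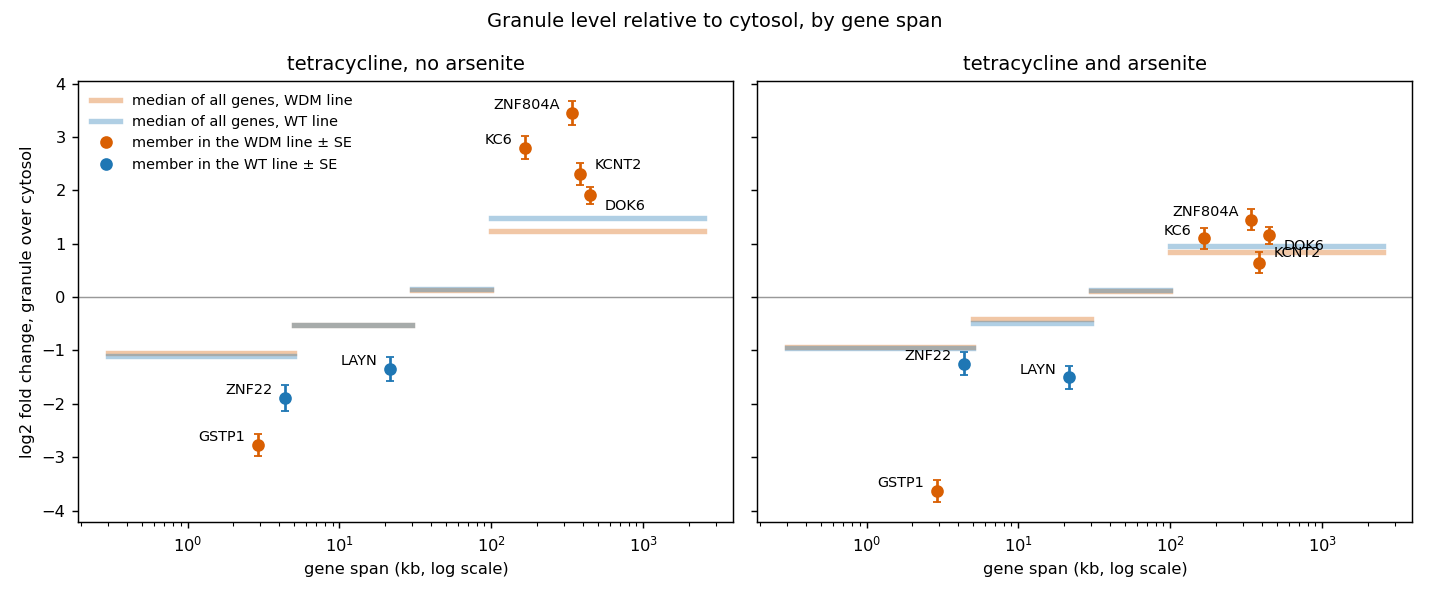
Log2 fold change of granule over cytosol (± SE) against gene span (log scale) for the 7 genes, without arsenite on the left and with it on the right; orange is WDM, blue is WT, and thick bars are medians of all genes under 5 kb, 5 to 30, 30 to 100 and over 100 kb. Long genes lie above 0 and short ones below in both panels, and the 4 long genes are nearer to their class median with arsenite.

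With arsenite the order between fractions kept its sign but the long genes drew closer to cytosol. All 5 WDM members were called between granule and cytosol, where 72% of genes were (36.3% higher, 35.7% lower), and both WT members, where 70.5% were (35% higher, 35.5% lower). The log2 fold changes were 1.45 for ZNF804A (SE 0.201, adjusted p 3.73e-07), 1.16 for DOK6 (SE 0.160, adjusted p 2.66e-07), 1.10 for KC6 (SE 0.200, adjusted p 1.79e-05) and 0.65 for KCNT2 (SE 0.199, adjusted p 0.00517). GSTP1 was further down, at -3.63 (SE 0.208, adjusted p 2.28e-14), below all but 0.623% of genes. In WT, LAYN was at -1.50 (SE 0.217, adjusted p 5.44e-07) and ZNF22 at -1.25 (SE 0.220, adjusted p 1.20e-05). The median of genes over 100 kb was 0.84 in WDM with arsenite, so KCNT2 then lay under it.

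Within granules arsenite lowered all 5 genes of the WDM line, 5 of 5 called lower, where 36.3% of 18366 genes were called and 17.7% were lower. Levels are scaled to each library, so these are falls in share. How much RNA a granule pellet held is not given in the sources used here. GSTP1 fell from 9.02, 19.5 and 16.8 to 7.76, 6.29 and 6.82 CPM, with a log2 fold change of -1.21 (SE 0.245, adjusted p 0.000471). KC6 went to 59.0, 38.1 and 37.2 CPM (log2 fold change -0.96, SE 0.189, adjusted p 0.000307), and KCNT2 to 78.1, 67.3 and 71.3 CPM (-0.95, SE 0.181, adjusted p 0.000217). Libraries with and without arsenite did not overlap for these 3 genes.

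ZNF804A and DOK6 fell less. ZNF804A had 185, 236 and 159.9 CPM with arsenite, each under the lowest of 244 without (log2 fold change -0.58, SE 0.168, adjusted p 0.00798). Its call was lost without WDM tetracycline granule replicate 3 (-0.48, adjusted p 0.0601) or arsenite granule replicate 3 (-0.47, adjusted p 0.0670). DOK6 had 122, 107 and 102 CPM with arsenite, overlapping 119.6 in 1 library without it. Its log2 fold change of -0.41 (SE 0.161, adjusted p 0.0476) was lost with the replicate number as a block (-0.40, adjusted p 0.0530), with library size alone (-0.35, adjusted p 0.103), without the low-count filter (-0.36, adjusted p 0.155) and in 5 of 6 fits that left out 1 library, where adjusted p reached 0.170. In these WDM granule groups the deviations of same-numbered libraries correlated positively, but arsenite replicates 2 and 3 correlated better with another number.

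In WT granules 0 of 2 were called with edgeR or DESeq2, where edgeR called 30.6% of genes, and 1 of 2 (ZNF22) had an unadjusted p under 0.05. LAYN had 3.07, 3.44 and 4.12 CPM with arsenite (log2 fold change -0.45, SE 0.254, adjusted p 0.184). ZNF22 had 9.12, 6.11 and 7.91 CPM, overlapping those without (0.60, SE 0.276, adjusted p 0.0977). Without WT tetracycline granule replicate 1 the ZNF22 value was 0.81 (adjusted p 0.0408), and without arsenite granule replicate 2 it was 0.77 (adjusted p 0.0460).

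The arsenite response differed between the fractions for the WDM genes, by the interaction of treatment and fraction. All 5 were called lower, where 24.2% of genes were called (7.66% higher, 16.5% lower), and the median of all genes was -0.17. ZNF804A had the largest value, -2.00 (SE 0.286, adjusted p 4.83e-05), as its share rose in cytosol and fell in granules. Such shares do not show that RNA moved between the fractions. KC6 was at -1.70 (SE 0.288, adjusted p 0.000195) and KCNT2 at -1.66 (SE 0.285, adjusted p 0.000218), also with cytosol up and granules down. GSTP1 was at -0.86 (SE 0.272, adjusted p 0.0214), down in both fractions and further in granules, and DOK6 at -0.74 (SE 0.226, adjusted p 0.0170). The GSTP1 call was lost in 4 of 12 fits without 1 library (WDM cytosol tetracycline replicate 3 and arsenite replicate 3, adjusted p 0.0565 and 0.0558; granule tetracycline replicates 2 and 3, 0.0986 and 0.0626). The DOK6 call was lost in 2 (cytosol tetracycline replicate 2 and arsenite replicate 1, 0.0747 and 0.0619).

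In WT 0 of 2 were called for that interaction by edgeR or DESeq2, and 0 of 2 had an unadjusted p under 0.05, where edgeR called 31.4% of genes. LAYN was at -0.16 (SE 0.306, adjusted p 0.730) and ZNF22 at 0.64 (SE 0.321, adjusted p 0.127). Whether the WT genes and the WDM genes differ in this was not tested, since they are different genes in different lines.

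Over the 5 groups of the expressing line, the order of mean CPM took 3 main forms. ZNF804A, KCNT2, KC6 and DOK6 were highest in tetracycline granules, then arsenite granules, then arsenite cytosol, with untreated and tetracycline cytosol last. Neighbours in that order overlapped between tetracycline and untreated cytosol for ZNF804A, KC6 and DOK6, between arsenite and untreated cytosol for KCNT2, and between the granule groups for DOK6. The means of GSTP1 and LAYN descended from untreated to tetracycline to arsenite cytosol and then to tetracycline and arsenite granules. Untreated and tetracycline cytosol overlapped for both genes. For LAYN, tetracycline and arsenite cytosol overlapped too, as did its granule groups. ZNF22 had its highest mean in tetracycline cytosol (18.6 ± 0.995 CPM), overlapping arsenite cytosol (18.4 ± 0.690 CPM).

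The 4 long genes also had a few counts in WT, more of them in granules than in cytosol with tetracycline. They passed the low-count filter through the WDM line, and these traces rest on few counts, so they are given as a description, with no test. In WT cytosol with tetracycline ZNF804A had 1 to 3 counts, KCNT2 1 to 3, KC6 0 or 1 and DOK6 2 to 7. WT granules of the same treatment gave 14 to 30 counts of ZNF804A (1.68 ± 0.614 CPM), 9 to 30 of KCNT2 (1.22 ± 0.294), 5 to 26 of KC6 (0.939 ± 0.0931) and 6 to 22 of DOK6 (0.916 ± 0.0866 CPM, SD, n = 3). The log2 fold changes of granule over cytosol were 3.41 for ZNF804A, 4.01 for KC6, 2.81 for KCNT2 and 1.58 for DOK6. With arsenite the values in WT were 1.54 for ZNF804A, 1.33 for KC6, 0.98 for DOK6 and 0.63 for KCNT2. In WT tetracycline granules the levels were 0.606%, 1.13%, 0.916% and 0.653% of those in WDM. GSTP1 had 1 count in WT tetracycline granules, 0.0876% of the WDM level.

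For LAYN and ZNF22 the WDM line held 1 to 2 counts in each tetracycline granule library and 2 to 9 counts in each tetracycline cytosol library. Counts this low are given as a description. The LAYN trace in tetracycline cytosol was 3.98% of the WT level, the highest share of any member in any condition. Whether such traces are RNA of the line itself or come from elsewhere was not tested.

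Genes around the members were compared between the lines as well. Of 110 annotated genes within 250 kb of any of the 7, 25 passed the low-count filter. Between the lines in untreated cytosol 4 of 25 were called, all higher in WDM, where 9.78% of genes were called (4.19% higher, 5.6% lower). All 4 lie beside ZNF804A or KCNT2 and passed the low-count filter through WDM libraries, where they are high. Their calls and direction are therefore given as a description, with no test. CFHR3, 166 kb from KCNT2, had 7 to 21 counts in a WDM library and 0 in WT, at least 3.36-fold higher. CFHR3 belongs to a family of near-identical copies, so its reads may have been split between them.

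Near ZNF804A the 2 long non-coding genes that passed the filter, both through WDM libraries, were also higher in WDM. ENSG00000286980, 216 kb away, had 46 to 59 counts in WDM and 0 or 1 in WT, at least 12.3-fold higher. ENSG00000283839, which overlaps ZNF804A on the other strand, had 14 to 18 counts in WDM and 0 or 1 in WT, at least 3.71-fold higher. Reads of the shared bases cannot be told apart without strand. Unlike ZNF804A, it did not gain CPM in granules, with a mean of 0.776 in WDM tetracycline cytosol and 0.312 in granules. ENSG00000286980 did, with 4.87 ± 1.60 and 34.98 ± 5.43 CPM.

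Around GSTP1 there was no called neighbour within 250 kb. By edgeR 0 of the 12 genes tested within 250 kb of it were called in any of the 3 cytosol conditions, with 2, 2 and 3 at an unadjusted p under 0.05. Their median log2 fold change between the lines in untreated cytosol was -0.08. LAYN (4 tested), ZNF22 (3) and DOK6 (2) had no called neighbour in untreated cytosol, and KC6 had no neighbour to test. With tetracycline 6 of 25 were called, all higher in WDM, where 12.6% of genes were (5.8% higher, 6.84% lower), and with arsenite 5 higher and 1 lower, where 10.4% were (4.98% higher, 5.37% lower). Both counts include the 4 genes beside ZNF804A or KCNT2 that passed the filter through WDM libraries. The others were RTTN near DOK6, DEPP1 near ZNF22 and ALG9 near LAYN, higher in WDM, and RASSF4 near ZNF22, lower. These 4, and CCDC102B, were named after their values were seen. DESeq2 called 2 of 25 in untreated cytosol, and 2 of 25 were called in each treated cytosol when only the groups compared were fitted. Within 1000 kb of any member 87 genes were tested. In untreated cytosol 9 were called higher in WDM and 2 lower (4.19% and 5.6% of all genes). With tetracycline these were 15 and 3, and with arsenite 10 and 2. Of the 38 near GSTP1, 1 was higher untreated, and 4 were higher and 1 lower with tetracycline. CCDC102B, 346 kb from DOK6, was higher in WDM in all 3 conditions, with 8.67 against 3.70 CPM untreated (log2 fold change 1.19, SE 0.162, adjusted p 3.30e-05).

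**Figure D4:**
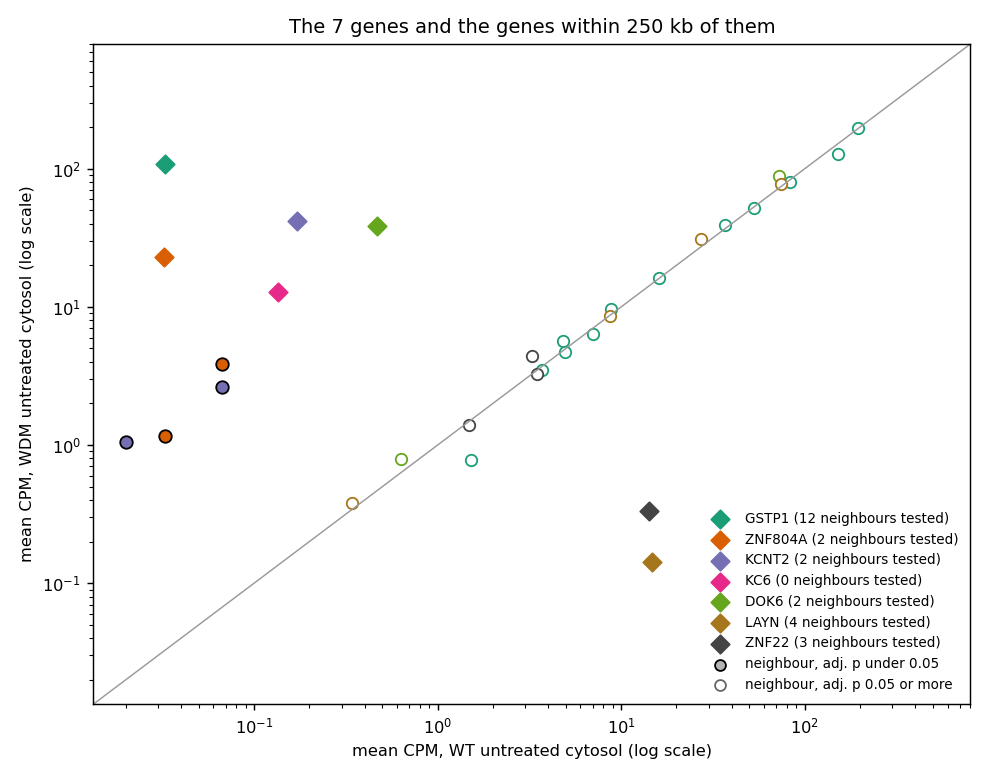
Mean CPM in untreated cytosol of the WT line (horizontal) and the WDM line (vertical), both on log scales, for the 7 genes (diamonds) and the 25 genes tested within 250 kb of them (circles, coloured by member); a mean of 0 is drawn at 0.02 and the diagonal marks equal levels. The 12 neighbours of GSTP1 lie on or near the diagonal, while the 4 called neighbours, filled circles, belong to ZNF804A and KCNT2. Those 4 passed the low-count filter through WDM libraries.

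Few other genes were as fully on in one line and off in the other. With at most 3 counts in each of the 15 libraries of one line and at least 5 CPM in each of the 5 groups of the other, GSTP1 was the 1 gene on in WDM. ZNF738, a zinc-finger gene of chromosome 19, was the 1 gene on in WT, with group means of 5.55 to 13.0 CPM and at most 2 counts in WDM. The other 6 members did not meet this rule, each through its trace counts or its low granule level. Asking for at least 1 CPM gave 5 genes in WDM, adding GPR173, P2RY6, ENSG00000250874 and ENSG00000251055. In cytosol libraries alone, an alternative added after the data were seen, there were 2 in each line, adding KC6 and H3C7.

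The glutathione system around GSTP1 was expressed in both lines. Of 23 genes of a list of transferases, glutathione synthesis and peroxidases, 17 passed the low-count filter. In untreated cytosol 1 was higher and 2 lower in WDM, 3 of 17, where 9.78% of all genes were called. MGST1, a microsomal transferase, was higher (55.1 against 38.8 CPM, log2 fold change 0.47, SE 0.0862, adjusted p 0.000883). GSTO2, an omega-class transferase, was lower (-0.74, SE 0.128, adjusted p 0.000508), as was GCLM, the modifier subunit of the rate-limiting enzyme of glutathione synthesis (-0.45, SE 0.119, adjusted p 0.0181). GSTM3, the mu-class transferase, was at 48.1 CPM in WDM and 52.1 in WT, and was not called.

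With arsenite 8 of the 17 fell and 0 rose in WDM cytosol, with a median log2 fold change of -0.29 against 0.00 for all genes, of which 14.8% fell. In WT cytosol 9 fell and 0 rose, where 15.4% of all genes fell. MGST3 (-0.53, adjusted p 0.000926), MGST2 (-0.50, adjusted p 0.00131), GSTO1 (-0.43, adjusted p 0.01001) and GSTK1 (-0.42, adjusted p 0.00358), all transferases or their relatives, fell in WDM beside -0.44 for GSTP1, as did GSTM3 (-0.39, adjusted p 0.0221). In WDM granules with arsenite 10 of 17 fell and 3 rose, where 17.7% of all genes fell and 18.7% rose. Between granule and cytosol with tetracycline 12 were lower and 2 higher in WDM, with a median of -1.22 against 0.02 for all genes, of which 35.3% were lower and 35.8% higher. GPX1 (-2.71), GPX4 (-2.56), GSTO1 (-2.32) and GSTM3 (-2.22) were nearest to the -2.77 of GSTP1.

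The other lists were sparser. Among 7 large-conductance potassium channel genes, 3 passed the filter, and KCNT1, the paralog of KCNT2, was at no more than 0.218 CPM in any group. KCNMA1, the BK channel pore, was higher in granules than cytosol in WDM (79.3 against 11.5 CPM, log2 fold change 2.77, SE 0.409, adjusted p 5.19e-06), as was KCNMB3 (1.26, SE 0.256, adjusted p 7.77e-05). With arsenite KCNMB3 rose in WDM cytosol (0.84, adjusted p 0.0131).

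Of 14 DOK adaptors and partner receptors, 10 passed the filter in cytosol. In untreated cytosol, where 5.6% of all genes were lower, 0 were higher and 2 lower in WDM. These were RET (2.68 against 4.29 CPM, adjusted p 0.0385) and GFRA2, a GDNF-family coreceptor (0.558 against 1.66 CPM). GFRA2 passed the filter through WT libraries, where it is high, so its lower level is a description, with no test. DOK5 was at no more than 0.196 CPM in any group. Arsenite raised GFRA3 (log2 fold change 1.76), DOK3 (0.86) and FRS2 (0.54) and lowered DOK4 (-0.49) in WDM cytosol, 4 of 10, where 28.8% of all genes were called. GFRA3 (0.353 CPM with tetracycline, 1.41 with arsenite) passed the filter through arsenite libraries, so its value is a description, with no test. In WDM granules with tetracycline 5 of 11 were higher and 2 lower than in cytosol, not above the 71.1% of all genes called there, with DOK3 higher by 1.79 and DOK4 lower by 1.16 on the log2 scale.

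Of 17 genes for hyaluronan and the partners of layilin, 11 passed in cytosol. In WT cytosol, where arsenite lowered 15.4% of all genes, it lowered 4 of the 11 and raised 0: HYAL2 (-0.78), NF2 (-0.28), CEMIP2 (-0.27) and RDX (-0.21 on the log2 scale). LAYN itself was not called there. CHODL, the closest relative of LAYN, was at 0.231 to 1.67 CPM in every group. In WT with tetracycline it had 1.05 CPM in granules and 0.231 CPM in cytosol (log2 fold change 2.14, against -1.35 for LAYN). CHODL was at no more than 0.436 CPM in any cytosol group and passed the low-count filter through granule libraries. Its value and the contrast with LAYN are therefore a description, with no test. Of the ZNF804A family, ZNF804B was at no more than 0.357 CPM, and GPATCH8 was at 60.1 CPM in cytosol and 178 in granules of WDM with tetracycline (log2 fold change 1.56, SE 0.226, adjusted p 1.02e-06).

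Likeness was measured as Pearson's r of log2 CPM over all 30 libraries, among 15365 genes, and is a description, since libraries share line, fraction and depth, and the members were chosen for the difference between lines. ZNF804A was most like LINC01036 (0.994), then KC6 (0.985) and PRR16 (0.982). KCNT2 was most like DOK6 (0.990), PLXDC2 (0.987) and GALNTL6 (0.983), and DOK6 and KC6 were at 0.986. GSTP1 was most like ERVMER34-1 (0.961), NRIP3 (0.953) and HMSD (0.945). LAYN and ZNF22 were each the other's nearest (0.975), followed for both by LGALS8 (0.972 and 0.973), and then ZNF253 for LAYN (0.959) and ZNF257 for ZNF22 (0.968), which was 0.319 within the 15 WT libraries. Within the 15 WDM libraries alone the 4 long genes had r of 0.893 to 0.984 with one another, and GSTP1 had -0.752 to -0.925 with them. Within the 9 WDM cytosol libraries these ranges were 0.587 to 0.961, and -0.491 (KCNT2) to -0.959 (ZNF804A) for GSTP1.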

How the data were processed

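RNA-seq counts per gene from 30 libraries of 2 lines were analysed. The deposited table holds raw counts, made by the authors with Trimmomatic, STAR, Picard and featureCounts on GRCh38, per the submitters' processing notes; versions, annotation release and strand setting are not given in the sources used here. Members and gene lists were chosen with earlier results of these data known.

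Counts were fitted with edgeR 4.0.16 (quasi-likelihood, robust, TMM scaling) in R 4.3.3, after its low-count filter (minimum count 10, total 15), over 18 cytosol, 12 granule, or the 24 tetracycline and arsenite libraries. Benjamini-Hochberg adjustment ran over all genes tested, and a call is an adjusted p under 0.05. CPM and RPKM were computed from counts without TMM. Of 60664 gene IDs, 60463 were in GENCODE release 44, used for exons and overlaps. Spans and neighbours came from the positions in the count table. Scripts were tested on simulated data. Alternatives were DESeq2 1.42.0, scaling by RLE or by library size only, no filter, a replicate block, fitting only the groups compared, and 54 fits that each left out 1 library.

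Genes named are the members, called list genes (up to 4 a list by size) with the nearest family member, called neighbours within 250 kb, the 3 most alike genes, and genes of the on/off pattern. Replicate pairs differed beyond sampling noise (chi-square per degree of freedom 1.63 to 40.7). Same-numbered libraries deviated together between WDM arsenite cytosol and granules (r 0.375 to 0.693), each correlating best with its own number. Between the WDM granule groups every r was also over 0.1 (0.143 to 0.540). There, arsenite replicates 2 and 3 correlated better with another number, so pairing by number is not shown. A count of 0 allows up to 3 counts. One neighbour and 1 marker gene are not reported here.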

Additional observations from a re-analysis of the deposited data

Results flagged for a closer look

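The arsenite response differed between granules and cytosol, by the interaction test, for all 5 genes of the WDM line. The difference, granule minus cytosol on the log2 scale, was -0.86 for GSTP1, -2.00 for ZNF804A, -1.66 for KCNT2, -1.70 for KC6 and -0.74 for DOK6. Of all genes 24.2% were called, 16.5% lower, and the median was -0.17. Of 12 fits that left out 1 library, the GSTP1 call was kept in 8 and the DOK6 call in 10. The share of counts in genes over 100 kb also moved, from 17.8% to 21.8% in WDM tetracycline cytosol to 22.2% to 25.7% with arsenite, and from 42.6% to 48.2% to 40.1% to 44.2% in granules. Its part in these differences was not tested. Levels in each fraction are shares of a library, so they do not show that RNA moved between fractions.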

How the results depend on the processing

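Granule-over-cytosol calls held for all 7 genes in every fit. Members called moved as follows: tetracycline in WT, 1 with DESeq2; tetracycline in WDM, 1 without the low-count filter and 1 with the replicate block; arsenite in WDM cytosol, 2 with only the groups compared; arsenite in WT granules, 1 with only the groups compared; the WT interaction, 1 without the filter. Leaving out 1 library gave 0 to 1 for tetracycline in WDM, 2 to 5 for arsenite in WDM cytosol, 0 to 1 in WT cytosol, 0 to 1 in WT granules, 3 to 5 in WDM granules and 4 to 5 for the WDM interaction. The causes were not tested. Directions reversed for uncalled values only: the LAYN interaction was 0.045 without the filter. Without 1 library it ran from -0.296 to 0.017, and tetracycline in WDM ran from -0.129 to 0.033 (GSTP1), -0.211 to 0.419 (ZNF804A), -0.307 to 0.071 (KC6) and -0.199 to 0.122 (DOK6). The ZNF22 interaction was 0.85 (adjusted p 0.0373) without the filter, and its granule arsenite value was 0.62 (adjusted p 0.0308) with only the groups compared.

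With the replicate block KCNT2 was called for tetracycline (adjusted p 0.0214) and DOK6 lost its granule call (0.0530); no other member's call changed. Of 75 same-numbered pairs 30 had r over 0.1, and 30 correlated best with their own number.

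Neighbours called were 2 in untreated cytosol with DESeq2, and 2 in tetracycline and 2 in arsenite cytosol with only the groups compared (4 to 5, 4 to 9 and 4 to 6 without 1 library). Genes on in one line were 5 (WDM) at 1 CPM, 0 (WT) at 1 count, and 2 in each in cytosol alone. With only the groups compared, genes called went from 886 to 220 (tetracycline, WT), 4838 to 2737 (arsenite, WT cytosol), 4804 to 1921 (arsenite, WDM cytosol), 1631 to 5463 (lines, untreated) and 2108 to 852 (lines, tetracycline). Scaling by library size alone moved the share of calls that were higher from 47.1% to 76.7% for arsenite in WT cytosol, where the median of all genes moved from -0.02 to 0.11, from 48.8% to 66.8% in WDM cytosol, from 55.1% to 43.9% for tetracycline in WT and from 45.9% to 56.0% between lines with tetracycline. No called member changed direction. At 0.109 to 0.508 CPM, 3 counts limit what can be said of the line without a gene.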
